A study of Mus musculus with 14 samples.

Results

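Heart RNA-Seq libraries of wild-type mice were compared by how much of their signal came from the mitochondrial genome. The members were chosen from the measured values themselves: in each library the FPKM of the genes whose symbol starts with mt- was summed and divided by the summed FPKM of all genes. Libraries with more than 30% formed the high share set, 7 in number, and libraries with less than 10% the low share set, 5 in number, so that 12 of 14 libraries entered the comparison. The other 2 were left out by the rule, WT_F 30 because its share of 17.2% lies between the limits and WT_A 24 because it carries atrial transcripts.

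The study asked how NAD+ precursors act in mice in which doxycycline lowers frataxin, and the libraries analysed here are its wild-type controls. All carry the labels heart, WT C57BL6J and no treatment, and the protocol shared by all samples names doxycycline chow for 16 to 20 weeks. The study also describes other spans, by cohort and sex, and the labels do not tie a span to a library. Each mouse gave 1 library. The high share set held WT_A 22, WT_F 28 and all 5 WT_B libraries (4, 5, 7, 8 and 9), and the low share set held WT_A 23 and 26 and WT_F 29, 31 and 32. The labels give neither age nor sex per mouse. By Xist and Y-linked genes, given below, WT_F reads as female and WT_A and WT_B as male, so the sets are not balanced by sex. No WT_B library had a low share, so for those 5 the label group and the share cannot be told apart, and WT_A and WT_F each contribute 1 library to the high share set. Because the sets were made from a measured value, the tests below describe what goes along with the share and not the effect of a treatment.

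The mitochondrial genome encodes subunits of the respiratory chain, both ribosomal RNAs and the tRNAs of the organelle, and its transcripts are abundant in heart muscle, whose contraction is paid for by oxidative phosphorylation. The remaining subunits of the respiratory chain come from nuclear genes, are made in the cytosol and are imported. In poly-T selected bulk RNA a mitochondrial share depends on the organelle's transcripts, on the cells and on how the RNA was extracted and selected, and fewer cells of a type cannot be told apart from less RNA per cell.

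Base composition ran along with the nuclear differences described below, so coding sequences are shown for a pair of genes that were higher with a high share (Uqcrb and Pln) and a pair that were lower (Cox8b and Rpl38). Each is the coding part of 1 transcript of the GENCODE M21 annotation (mouse build GRCm38), the first 300 bases of it for Uqcrb, on chromosomes 13, 10, 7 and 11 in the order printed, with G and C in capitals and A and T in lower case.
Uqcrb: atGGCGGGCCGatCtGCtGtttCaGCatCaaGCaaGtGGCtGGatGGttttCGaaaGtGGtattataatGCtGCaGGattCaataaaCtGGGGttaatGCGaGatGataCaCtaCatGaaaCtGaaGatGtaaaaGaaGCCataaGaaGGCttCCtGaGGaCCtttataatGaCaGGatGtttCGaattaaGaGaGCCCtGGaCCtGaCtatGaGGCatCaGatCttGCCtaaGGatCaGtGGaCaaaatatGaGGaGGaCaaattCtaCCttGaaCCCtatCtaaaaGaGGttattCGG
Pln: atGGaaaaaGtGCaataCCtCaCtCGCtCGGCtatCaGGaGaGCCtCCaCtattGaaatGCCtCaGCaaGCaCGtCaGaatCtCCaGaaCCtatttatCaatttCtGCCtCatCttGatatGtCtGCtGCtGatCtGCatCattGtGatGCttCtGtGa
Cox8b: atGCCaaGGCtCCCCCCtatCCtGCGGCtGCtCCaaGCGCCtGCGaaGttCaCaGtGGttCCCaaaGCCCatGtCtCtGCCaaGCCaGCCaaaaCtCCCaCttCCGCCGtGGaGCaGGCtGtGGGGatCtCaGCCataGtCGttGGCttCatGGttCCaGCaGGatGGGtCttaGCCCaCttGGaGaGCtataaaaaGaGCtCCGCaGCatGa
Rpl38: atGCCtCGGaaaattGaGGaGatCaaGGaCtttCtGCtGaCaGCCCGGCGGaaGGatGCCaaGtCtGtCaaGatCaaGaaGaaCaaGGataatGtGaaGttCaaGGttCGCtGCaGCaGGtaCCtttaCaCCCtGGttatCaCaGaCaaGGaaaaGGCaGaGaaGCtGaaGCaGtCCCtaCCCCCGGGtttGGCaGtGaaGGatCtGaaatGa
G and C make up 42.9% of the 336 coding bases of Uqcrb, 44.7% of the 159 of Pln, 57.7% of the 213 of Cox8b and 49.3% of the 213 of Rpl38. The GC content of a gene is taken here over all its annotated transcripts pooled, so that an exon in several transcripts counts each time. It is 41.3% for Uqcrb, 41.6% for Pln, 55.8% for Cox8b and 55.8% for Rpl38. Cox8b and Rpl38 are the most GC-rich of the 10 lower genes named below. The GC content of those 10 runs from 44.1% in Smim27 to 55.8% in Cox8b.

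The mt- share was 51.0% in WT_A 22, 49.99% in WT_F 28 and 48.9%, 49.5%, 45.2%, 52.02% and 33.8% in WT_B 4, 5, 7, 8 and 9. Low share libraries had 1.93% and 2.17% in WT_A 23 and 26, and 7.56%, 7.63% and 2.42% in WT_F 29, 31 and 32. WT_B 9 lies just inside the upper limit and WT_F 31 just inside the lower one, with WT_F 30 alone between them. Counted as fragments, without the division by gene length, the share was 17.6% to 28.4% in the high share set and 0.804% to 3.38% in the low share set. The order of the sets was the same, but no library then exceeded 30%. With the 13 mt- mRNAs alone the shares were 33.2% to 50.05% in the high share set and 1.68% to 7.23% in the low share set, so rRNAs and tRNAs did not set the membership.

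**Figure D1:**
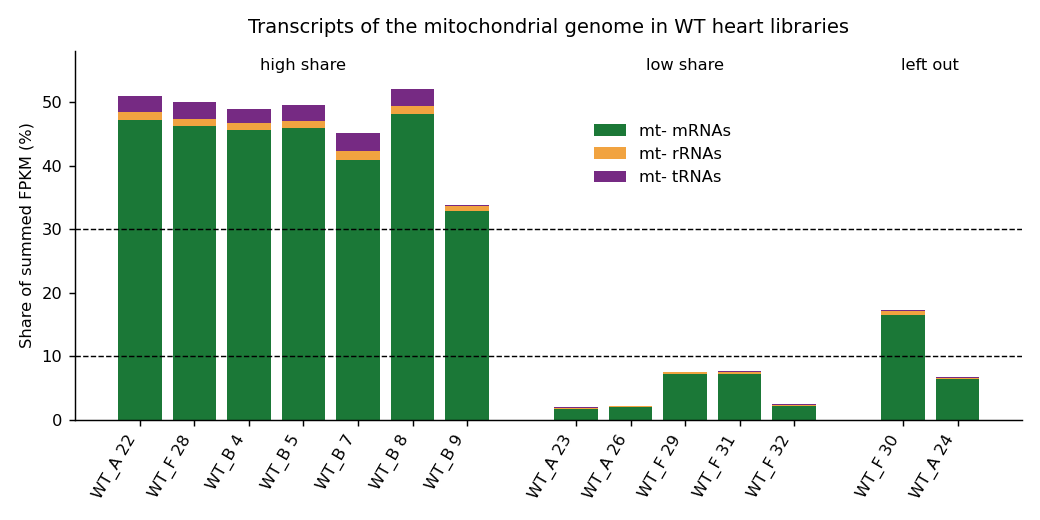
Bars give the percent of summed FPKM in mt- genes in each of the 14 libraries, split into mRNAs, rRNAs and tRNAs, with dashed lines at the limits of 30% and 10%. The 7 high share libraries reach 33.8% to 52.02% and the 5 low share libraries 1.93% to 7.63%.

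The mt- genes did not differ by 1 common factor. Their values are a description, since they chose the libraries, and are given per 1000000 of nuclear FPKM. The gene mt-Co1, the catalytic subunit of cytochrome c oxidase, averaged 277115 ± 29945 in high share libraries (SD, n = 7) and 13173 ± 11510 in low share libraries (SD, n = 5), 21.04 times as much. mt-Cytb of complex III stood 9.02 times higher and the large ribosomal RNA mt-Rnr2 5.68 times, whereas mt-Co3 stood 239 times, mt-Nd6 177 times, mt-Atp6 167 times and mt-Nd2 150 times higher. Within the mt- total, mt-Cytb made up 15.1% on average with a high share and 35.1% with a low share. For mt-Nd2 the averages were 8.96% and 2.08%.

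The libraries of each set also differed among themselves in which mt- genes they held. WT_B 9 had mt-Co1 at 235569, close to the other high share libraries, but mt-Nd6 at 1514 against a median of 59029 over the 7 libraries. In WT_B 9, mt-Nd3 was at 38.4, within the low share range of 7.64 to 49.1, and mt-Atp8 at 2.34, below the low share range of 2.61 to 15.5. Its tRNAs made up 0.786% of the mt- total, against 4.71% to 6.43% in the other 6. Among low share libraries, mt-Co1 was at 26470 in WT_F 29 and 25065 in WT_F 31, against 5167, 4582 and 4582 in WT_A 23, WT_A 26 and WT_F 32. mt-Nd2 did not follow that order, at 252 and 549 in WT_F 29 and 31 and at 965, 539 and 516 in the other 3.

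Nuclear genes were rescaled so that the FPKM of all genes not named mt- sum to 1000000 in every library, called nuclear TPM here, and differences are on the log2(nuclear TPM + 1) scale, high minus low. Of 14664 genes tested with limma, 4595 were called at an adjusted p of 0.05, or 31.3%. Of these, 3583 were higher with a high share (24.4% of genes tested) and 1012 lower (6.90%). All 7 high share libraries lay above all 5 low share libraries for 2263 genes (15.4%) and below them for 448 (3.06%). The filter, 1 nuclear TPM in at least 5 of the 12 libraries, does not treat the sets alike. A gene present in 1 set alone passed with 5 of the 7 high share libraries, but needed all 5 low share libraries. Without a filter 80.5% of calls were higher, and with a filter of 5 nuclear TPM 73.7%. The split depends on the scaling: 78.0% of calls were higher with the nuclear total, against 57.3% with median-of-ratios scaling, 46.4% with the deposited FPKM and 42.9% with quantile normalization. These scalings move the median difference of all genes, which is 0.07, by -0.10, -0.12 and -0.19. The results below are therefore read against the median of all genes.

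Uqcrb and Pln led the genes named by rule, which are the 10 called genes in each direction with the largest difference among those without overlap between the sets, with the same sign within WT_A and WT_F and with at least 5 nuclear TPM on average in the higher set. Uqcrb (ENSMUSG00000021520), a subunit of complex III, was at 930 to 1299 nuclear TPM in high share libraries, with a median of 1042. In low share libraries it was at 20.5 and 6.99 in WT_A 23 and 26, and 73.0, 51.3 and 4.76 in WT_F 29, 31 and 32. The log2 difference was 5.67 (standard error 0.52, adjusted p = 3.65e-06). Every high share library was thus more than 10 times above every low share library, and WT_F 30, left out, lay between the sets at 248.

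Pln (ENSMUSG00000038583) encodes phospholamban, which restrains the calcium pump of the sarcoplasmic reticulum. It was at 1808 to 2784 nuclear TPM in high share libraries, with a median of 2452, against 34.2, 35.6, 700.0, 553 and 40.5 in WT_A 23, WT_A 26, WT_F 29, WT_F 31 and WT_F 32. The sets did not overlap, but the low share libraries themselves spread widely, and the log2 difference of 4.34 has a standard error of 0.71 (adjusted p = 0.00032). These values rest on 546 to 10898 fragments per low share library. Tecrl (ENSMUSG00000049537), an endoplasmic reticulum protein gene linked to inherited arrhythmia in humans, was at 67.8 to 131 with a median of 96.7 in high share libraries. Low share libraries had 2.81, 0.996, 18.9, 16.3 and 1.84 in the same order (log2 difference 4.09, standard error 0.51, adjusted p = 3.5e-05).

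The other higher genes of the rule were Zfp971, a zinc finger gene, the mRNA export factor gene Sarnp, the GTPase regulator gene Arhgap5, the ribosomal protein paralog Rpl22l1, the septin gene Sept7, the actin capping gene Capza2 and the small proteoglycan gene Ogn. Their log2 differences ran from 3.34 for Ogn to 3.83 for Zfp971, with adjusted p from 1.47e-07 to 1.26e-05. Zfp971 was at 10.7 to 23.03 nuclear TPM with a median of 19.7 in high share libraries and at 0 to 1.14 in low share libraries, on 0 to 15 fragments there. Sarnp and Rpl22l1 reached at most 0.72 and 0.67 in low share libraries. These 3 genes passed the filter only through the set where they are high. Ogn was at 96.2 to 167 with a median of 138 in high share libraries and at 5.25 to 25.9 in low share libraries. Among low share libraries, WT_F 29 and WT_F 31 were both above the other 3 for 8 of these 10 genes, and WT_F 30 lay between the sets for 9 of 10. All 10 genes have a GC content under 44%, from 34.8% in Arhgap5 to 43.5% in Sarnp.

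Of the 10 genes named by rule as lower, most belong to the ribosome or the respiratory chain. Cox8b (ENSMUSG00000025488), the muscle form of a cytochrome c oxidase subunit, was at 2568 to 4099 nuclear TPM with a median of 3402 in high share libraries, against 7714, 8533, 6145, 7097 and 7281 in WT_A 23, WT_A 26, WT_F 29, WT_F 31 and WT_F 32. The sets did not overlap, and the log2 difference was -1.14 (standard error 0.12, adjusted p = 1.02e-05). Rpl38 (ENSMUSG00000057322) of the large ribosomal subunit was at 232 to 409 with a median of 296, against 739, 724, 651, 715 and 795 in the same order (log2 difference -1.22, standard error 0.13, adjusted p = 1.26e-05).

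Rps28 of the small subunit was at 66.7 to 99.0 with a median of 78.1 in high share libraries, against 196, 192, 187, 201 and 208 in low share libraries, a narrow range. Its log2 difference was -1.27 (standard error 0.09, adjusted p = 7.49e-07). Rps29 and Rpl7a of the ribosome, the Rpl9 pseudogene Rpl9-ps6, the small membrane protein gene Smim27, the snoRNA host Snhg8, the ATP synthase subunit gene Atp5e and the complex I subunit gene Ndufa7 complete the rule, with log2 differences of -1.19 for Rpl9-ps6 to -0.96 for Rps29. Rpl9-ps6 may share fragments with Rpl9, since near-identical copies can divide reads. The differences in this direction were smaller: 1718 genes met the conditions of the rule above and 389 below, and an absolute log2 difference of at least 1 was reached by 988 higher and 32 lower genes.

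**Figure D2:**
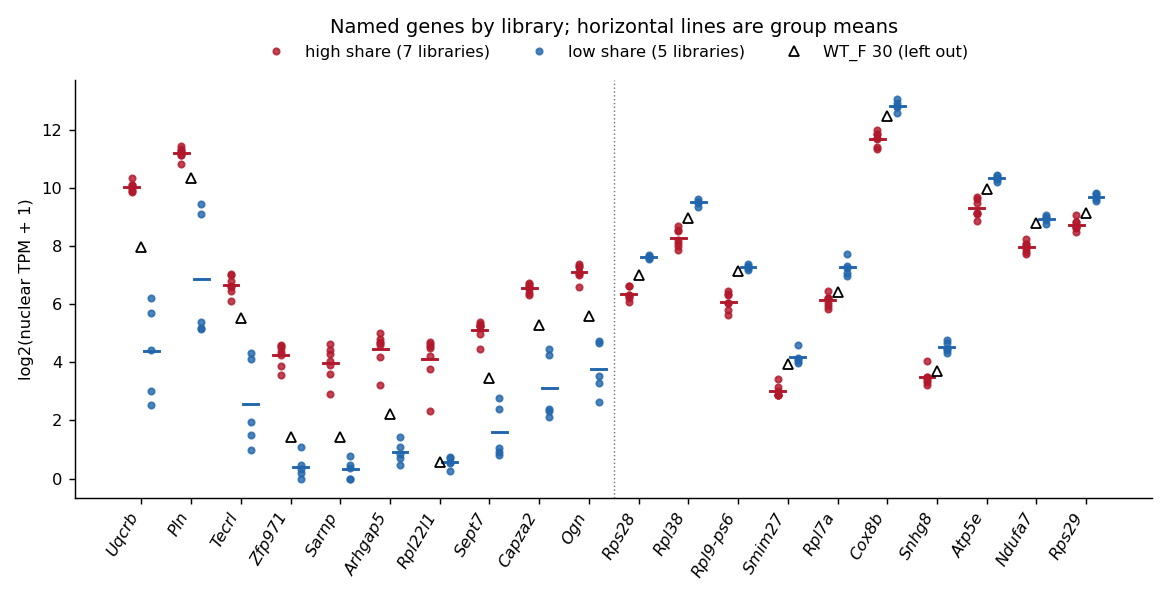
Points give log2(nuclear TPM + 1) of the 10 higher (left) and 10 lower (right) named genes in each library, the 7 high share libraries left of the 5 low share libraries, with lines at the set means and open triangles for WT_F 30. By the naming rule the sets do not overlap for any of the 20 genes, and low share libraries spread most for Uqcrb, Pln and Tecrl.

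The difference was also present within label groups. With the label group as a term in the fit, so that WT_A 22 is set against WT_A 23 and 26 and WT_F 28 against WT_F 29, 31 and 32, 2631 genes were higher (17.9%) and 589 lower (4.02%). All 20 genes named above kept their call there. Their direction was set by the naming rule, which asked for the same sign within WT_A and WT_F, so it is no separate support. The WT_A and WT_F comparisons have no library in common, and across 14285 genes their differences correlated with Pearson's r = 0.737 and Spearman's coefficient = 0.646, as a description, since genes are not independent and each comparison rests on a single high share library.

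Genes chosen in one label group were then read in the other. Of the 500 genes that were highest in WT_F 28 relative to WT_F 29, 31 and 32, 484 (96.8%) were also higher in WT_A 22 than in WT_A 23 and 26, with a median log2 difference of 2.01, where 58.3% of all genes were. For the 500 lowest the share was 61.6%, where it was 41.6% for all genes. Chosen in WT_A and read in WT_F, 93.8% of the 500 highest had the same sign, where it was 48.7% for all genes, and 79.4% of the 500 lowest, where it was 51.2%. The picks were unlike in size. Where chosen, the median difference was 1.71 in WT_F and 2.17 in WT_A for the 500 highest, and -0.79 and -0.74 for the 500 lowest. Read in the other label group, it was 2.01 and 1.56 for the highest and -0.19 and -0.31 for the lowest. The shares of the directions are therefore not compared.

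**Figure D3:**
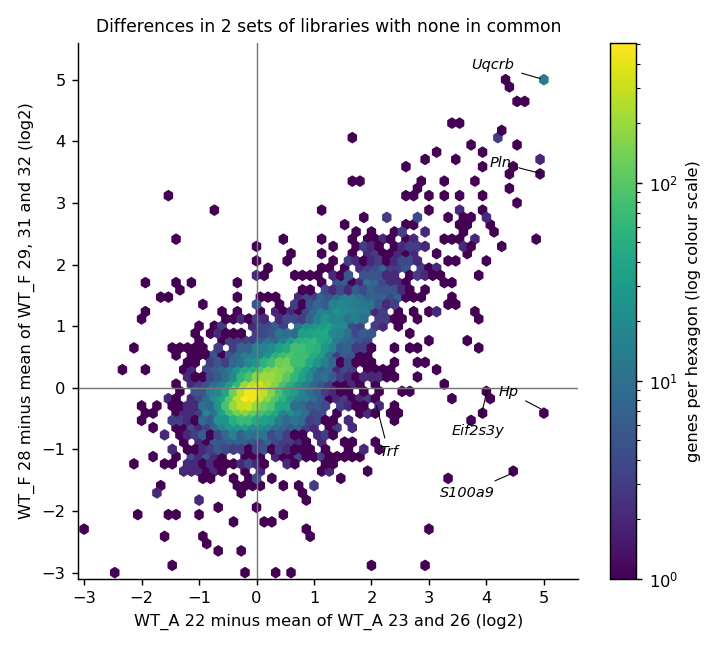
Each hexagon counts genes by their log2 difference in WT_A (WT_A 22 minus WT_A 23 and 26, horizontal) and in WT_F (WT_F 28 minus WT_F 29, 31 and 32, vertical), with values beyond -3 or 5 drawn at the edge. The differences correlate (r = 0.737 across 14285 of the 14664 genes drawn), whereas Hp, S100a9, Eif2s3y and Trf are higher in the WT_A comparison alone.

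A few genes differed between the label groups instead. A test of whether the high minus low difference was the same in WT_F and WT_A called 8 genes of 14664 (0.0546%). Hp, which encodes the hemoglobin-binding plasma protein haptoglobin, was at 202 nuclear TPM in WT_A 22 and at 0.305 to 4.94 in the low share libraries, and at 0.625 to 4.23 in the other high share libraries. Trf, the transferrin gene, was at 172 in WT_A 22, against 34.8 to 44.2 in low share libraries. Ahsg, Lcat, Cdo1, the neutrophil alarmin gene S100a9 and the Y-linked gene Eif2s3y likewise were higher in WT_A 22 than in WT_A 23 and 26, and Tmem100 was low in WT_F 28, at 13.7 against 26.8 to 28.8 in WT_F 29, 31 and 32. Ahsg was higher still in WT_A 24, at 120 against 68.5 in WT_A 22. Eif2s3y was at 0 in every WT_F library, so it could show no difference there.

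GC content ran with the difference over much of its range. Pearson's r between a gene's log2 difference and its GC content was -0.635 and Spearman's coefficient -0.672 across 14285 genes, -0.599 and -0.636 within WT_A, and -0.609 and -0.664 within WT_F. Among the 324 genes with 38 to 40% GC the median log2 difference was 1.23 and 92.3% were called higher. Among the 1572 genes with 50 to 52% it was -0.01, with 5.41% called higher and 7.57% lower. From there to 66% the medians stayed between -0.13 and -0.05. The relation therefore bends, and concerns AT-rich genes.

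Per library, genes under 40% GC took 0.869% to 1.31% of the nuclear total in high share libraries (mean 1.21% ± 0.156, SD, n = 7), against 0.265% to 0.479% in low share libraries (mean 0.368% ± 0.0971, SD, n = 5). The sets did not overlap (exact permutation test over 792 splits, two-sided p = 0.00126, the smallest these libraries allow, adjusted p = 0.00316 over 5 measures). The mt- mRNAs and rRNAs themselves have GC contents of 31.9% to 41.1%. Whether base composition has a part in the mt- share, or in the nuclear differences, was not tested.

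**Figure D4:**
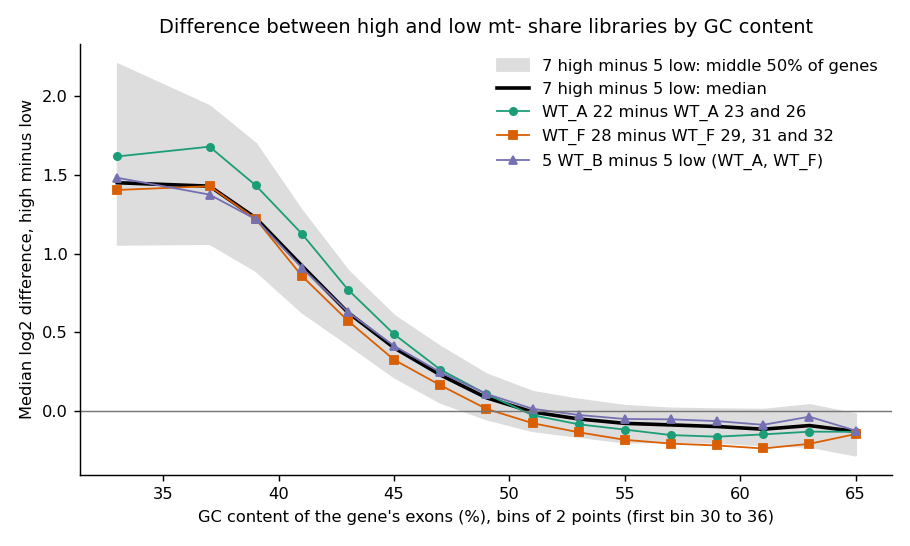
Lines give the median log2 difference of genes in bins of GC content, pooled over the transcripts of each gene. They are drawn for all 12 libraries (black, with the middle 50% of genes in grey), within WT_A, within WT_F, and for WT_B against the 5 low share libraries. All 4 lines fall steeply up to about 50% GC and are near or below 0 beyond it.

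When the trend on GC content was taken out of every library, 2093 genes were called, 962 higher (6.73% of 14296 tested) and 1131 lower (7.91%), and the 20 genes named above kept call and direction. With the label group as a term in addition, an alternative chosen after seeing the data, 509 were higher (3.56%) and 308 lower (2.15%). With the GC trend alone removed, Uqcrb had a log2 difference of 4.76 (adjusted p = 3.13e-05) and Pln 3.49 (adjusted p = 0.00277). Shorter genes were lower within a narrow GC range as well: at 50 to 54% GC the median log2 difference was -0.27 for the 77 genes under 1000 bases, with 36.4% called lower, and -0.002 for the 1016 genes of 4000 to 8000 bases, with 4.04% called lower.

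Cytosolic ribosomal protein genes were the list with the most lower members. Of 79 tested, 63 were lower and 0 higher, with a median log2 difference of -0.47, where it was 0.07 for all genes and 6.90% of all genes were lower. Summed over the list, high share libraries had 24138 to 31604 nuclear TPM and low share libraries 36514 to 43146, without overlap. Rps15 of the small subunit was at 1138 to 1322 with a median of 1167 in high share libraries, against 1976, 1715, 1776, 1781 and 2047 in low share libraries (log2 difference -0.63, standard error 0.06, adjusted p = 4.86e-06). After removal of the GC trend 67 were lower, where it was 7.91% of all genes. Within label groups 32 were lower and 2 higher, where it was 4.02% and 17.9%. Among protein-coding genes at large, 34.8% of those under 1000 bases were lower, and 21.3% of those of 1000 to 2000 bases. The part of gene length in this list was not tested.

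Nuclear genes of the respiratory chain were lower as well, against the direction of the mt- genes that encode their partner subunits. Here too the lists were not matched for gene length, and its part was not tested. Of 36 complex I genes, 22 were lower (61.1%, where it was 6.90% for all genes) and 3 higher (8.33%, where it was 24.4%). Their median was -0.28. Of 42 genes of complexes II to V, 23 were lower (54.8%) and 4 higher (9.52%), with a median of -0.24 and Uqcrb as the most divergent member. Ndufa7 of complex I was at 212 to 299 nuclear TPM with a median of 247 in high share libraries, against 495, 533, 433, 474 and 515 in low share libraries (log2 difference -0.97, adjusted p = 2.64e-06). Ndufb7 and Ndufa3 had log2 differences of -0.54 and -0.65. Atp5o, the stalk subunit of ATP synthase that links its parts, was at 771 to 827 with a median of 799 in high share libraries and at 1083 to 1281 in low share libraries (log2 difference -0.53, standard error 0.05).

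Both lists kept more lower than higher members in the settings given next. Lower members numbered 14 and 20 with the label group as a term (4.02% of all genes), 19 and 29 with the GC trend removed (7.91%), and 6 and 14 with both (2.15%). List medians stayed below that of all genes under the other scalings, but the gap varied. For complex I it was -0.35 in the main fit, -0.36 with median-of-ratios scaling, -0.40 with deposited FPKM and -0.15 with quantile normalization. For complexes II to V it was -0.31, -0.33, -0.36 and -0.07 in the same order. Summed nuclear TPM was 23027 to 25450 in high share libraries and 28616 to 31494 in low share libraries for complex I, and 66649 to 73176 in high share libraries and 83972 to 95704 in low share libraries for complexes II to V. Mitochondrial ribosomal protein genes followed in smaller measure. Of 77, 32 were lower (41.6%, where it was 6.90% for all genes) and 9 higher (11.7%, where it was 24.4%). Their median was -0.15. Mrps28 was at 179 to 203 with a median of 181 in high share libraries and at 245 to 278 in low share libraries, a log2 difference of -0.50. Mrpl54 had -0.51. Mrpl1, of 41.1% GC, went the other way at 26.3 to 32.8 in high share libraries against 5.11 to 14.4 in low share libraries (log2 difference 1.505, adjusted p = 2.84e-05).

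**Figure D5:**
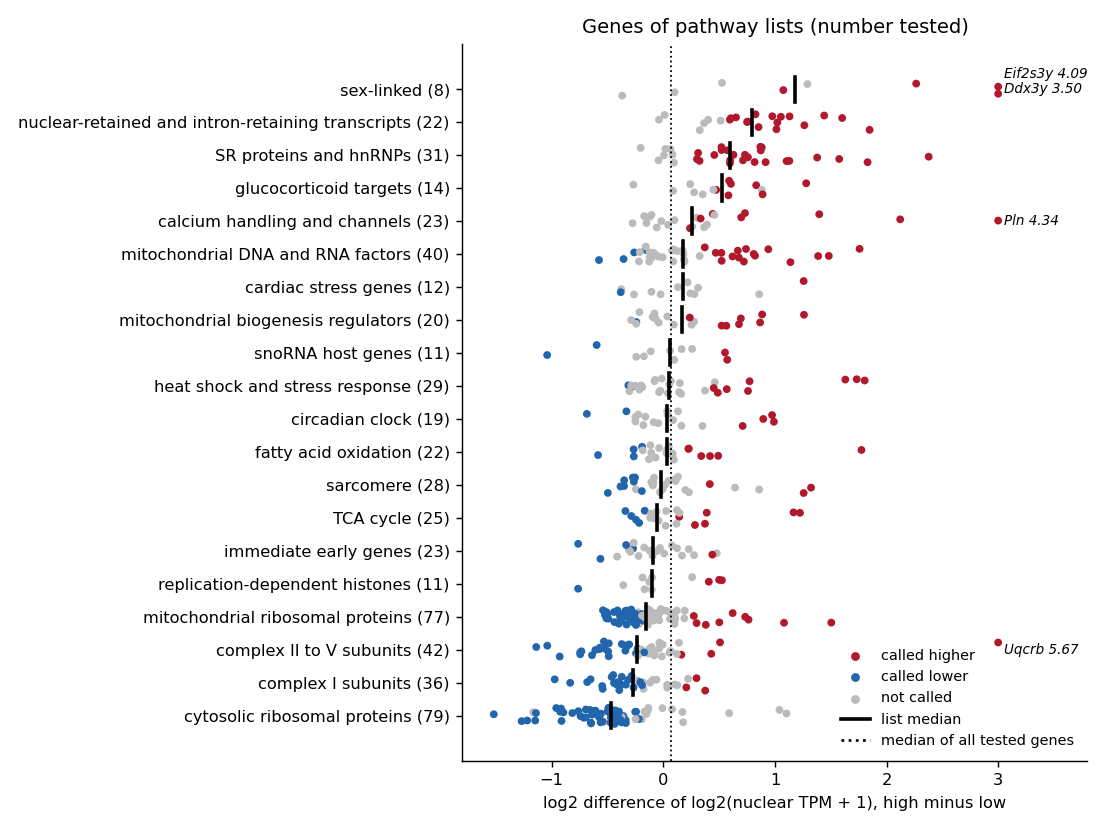
Each point is a gene's log2 difference, high minus low, by list, coloured by its call, with a bar at the list median and a dotted line at the median of all genes (0.07); differences above 3 are drawn at 3 with their values. Cytosolic ribosomal proteins and the respiratory chain lie left of the line, SR proteins, hnRNPs and nuclear-retained transcripts right of it.

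Of 40 genes that maintain and express mitochondrial DNA, 16 were higher (40%, where it was 24.4% for all genes) and 4 lower (10%, where it was 6.90%), with a median of 0.18 that turned to -0.03 with quantile normalization, where the median of all genes was -0.11. Trmt10c, a subunit of mitochondrial RNase P, was at 19.99 to 27.2 nuclear TPM with a median of 23.9 in high share libraries, against 9.91, 11.2, 9.33, 10.5 and 10.3 in low share libraries (log2 difference 1.14, standard error 0.08, adjusted p = 7.7e-07). The low share libraries hardly varied among themselves. Mterf2, a mitochondrial termination factor family gene, had a log2 difference of 1.39, and Ptcd3, a mitochondrial ribosome protein with RNA-binding repeats, 0.94. With the GC trend removed 3 were higher and 3 lower, where it was 6.73% and 7.91% of all genes. Trmt10c (0.35, adjusted p = 0.0574) and Ptcd3 (0.13, adjusted p = 0.230) lost their calls there, whereas Mterf2 kept it (0.96).

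Regulators of mitochondrial biogenesis gave 8 higher genes of 20 (40%, where it was 24.4% for all genes) and 1 lower, with a median of 0.17 (-0.02 with quantile normalization). Tfam, which packages and transcribes mitochondrial DNA, was at 36.5 to 43.7 nuclear TPM with a median of 38.6 in high share libraries, against 19.2, 19.5, 30.8, 31.1 and 21.96 in low share libraries (log2 difference 0.68, standard error 0.12, adjusted p = 0.000583). Within the low share set WT_F 29 and 31 were again the highest. The deacetylase gene Sirt1 had a log2 difference of 1.26 and the nuclear receptor gene Esrrg 0.89. After removal of the GC trend the differences were 0.16 for Tfam (adjusted p = 0.284) and 0.26 for Esrrg (adjusted p = 0.157), while Sirt1 stayed just called at 0.45 (adjusted p = 0.0452).

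The TCA cycle and fatty acid oxidation were mixed. Of 25 TCA cycle genes, 6 were higher (24%, where it was 24.4% for all genes) and 5 lower (20%, where it was 6.90%). Dld, a subunit shared by several mitochondrial dehydrogenases, was at 393 to 536 nuclear TPM in high share libraries with a median of 502, against 165, 187, 250, 249 and 188 in low share libraries (log2 difference 1.22, standard error 0.11, adjusted p = 3.55e-06). Sucla2 of succinyl-CoA ligase had 1.17 and Pdhb of pyruvate dehydrogenase 0.37. Dld has a GC content of 39.97%, and with the GC trend removed it had 0.16 (adjusted p = 0.0699) and Pdhb 0.05 (adjusted p = 0.663).

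Of 22 genes of fatty acid oxidation, 6 were higher (27.3%, where it was 24.4% for all genes) and 4 lower (18.2%, where it was 6.90%). Cd36, the fatty acid uptake protein, was at 1624 to 2281 nuclear TPM with a median of 2089 in high share libraries, against 399, 467, 840, 814 and 580 in low share libraries (log2 difference 1.78, standard error 0.17, adjusted p = 4.96e-06). It kept a difference of 0.56 with the GC trend removed. The electron transfer genes moved apart: Etfdh was higher by 0.49 and Etfb lower, at 151 to 276 with a median of 216 in high share libraries and at 319 to 373 in low share libraries (log2 difference -0.58, adjusted p = 0.00174).

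Contractile genes had more lower than higher members in the main fit, but not in every setting. Of 28 sarcomere genes, 8 were lower (28.6%, where it was 6.90% for all genes) and 3 higher (10.7%, where it was 24.4%), with a median of -0.02. Within label groups 3 were lower and 2 higher, where it was 4.02% and 17.9% of all genes. With the GC trend removed 3 were lower and 3 higher, where it was 7.91% and 6.73%. The median was then 0.03, where it was -0.01 for all genes. Quantile normalization gave 4 lower and 4 higher. Myl2, the ventricular regulatory light chain of myosin, was at 10171 to 11317 nuclear TPM with a median of 10404 in high share libraries, against 15444, 15960, 14351, 13995 and 15633 in low share libraries. The sets were separate, with a log2 difference of -0.50 (standard error 0.06, adjusted p = 2.4e-05). Myh6, the main myosin heavy chain of the adult mouse heart, was at 8998 to 17062 in high and 9813 to 13170 in low share libraries (log2 difference 0.20, adjusted p = 0.347), and the cardiac actin gene Actc1 at 22878 to 40704 in high and 23073 to 31326 in low share libraries (0.11, adjusted p = 0.608). The large scaffold genes Xirp2 and Nebl were higher, by 1.26 and 1.32, or by 0.47 each with the GC trend removed.

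Calcium handling and channel genes had 8 higher members of 23 (34.8%, where it was 24.4% for all genes) and 0 lower, with a median of 0.26. Besides Pln, they included Trdn, the triadin gene of the calcium release complex, at 88.3 to 168 nuclear TPM with a median of 148 in high share libraries and 17.2, 23.9, 47.9, 49.4 and 30.9 in low share libraries (log2 difference 2.12, standard error 0.24, adjusted p = 1.72e-05). Cacna2d1, a subunit of the L-type calcium channel, had 1.40, and Slc8a1, the sodium-calcium exchanger, 0.70. With the GC trend removed 3 were called higher, where it was 6.73% of all genes, and Slc8a1 had 0.09 (adjusted p = 0.549). Of 12 cardiac stress genes, 1 was higher (8.33%, where it was 24.4% for all genes) and 1 lower (8.33%, where it was 6.90%). The higher one was Xirp2 and the lower one Uchl1, a ubiquitin hydrolase gene, by -0.38 (adjusted p = 0.0448, and -0.10 with adjusted p = 0.707 within label groups). Fhl1 did not pass the test (0.22, adjusted p = 0.0639).

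Lists of RNA processing had the largest shares of higher members. Of 31 SR proteins and hnRNPs, 24 were higher (77.4%, where it was 24.4% for all genes) and 0 lower, with a median of 0.60. Hnrnpd, which binds AU-rich elements, was at 19.99 to 27.5 nuclear TPM with a median of 23.4 in high share libraries, against 6.69, 7.0003, 11.6, 8.05 and 10.3 in low share libraries (log2 difference 1.38, standard error 0.13, adjusted p = 3.77e-06). Srsf10, a splicing factor, had 1.83 and Hnrnpk 0.71. Summed over the list, high share libraries had 1839 to 2435 and low share libraries 1332 to 1856, so the ranges overlapped. The list's median GC content was 44.6%, where it was 50.3% for all genes. With the GC trend removed 8 were higher and 3 lower, where it was 6.73% and 7.91% of all genes. Hnrnpd (0.93) and Srsf10 (1.08) were still called there and Hnrnpk (0.04) was not.

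Of 22 transcripts known to be kept in the nucleus or to retain introns, 16 were higher and 0 lower. That is 72.7% higher, where it was 24.4% for all genes, and the median was 0.79. Luc7l3, a splicing factor gene, was at 23.02 to 37.2 nuclear TPM with a median of 31.6 in high share libraries, against 8.499, 5.79, 12.8, 11.7 and 8.84 in low share libraries (log2 difference 1.602, standard error 0.17, adjusted p = 1.3e-05). Its paralog Luc7l2 had 1.26 and Rbm39, a spliceosome-associated factor gene, 1.05. With the GC trend removed 7 were called higher, where it was 6.73% of all genes. With the label group as a term in addition 0 were, where it was 3.56%. All 3 genes named had the same sign within WT_A and within WT_F.

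Of 29 heat shock and stress genes, 8 were higher (27.6%, where it was 24.4% for all genes) and 2 lower (6.90%, as for all genes). Hsp90aa1, a chaperone gene, was at 131 to 323 nuclear TPM with a median of 213 in high share libraries, against 54.5, 45.8, 110, 83.3 and 59.7 in low share libraries (log2 difference 1.63, standard error 0.22, adjusted p = 8.11e-05). The co-chaperone gene Dnajb4 had 1.80 and the mitochondrial chaperonin gene Hspd1 0.77, and these 3 kept their calls with the GC trend removed, at 1.16, 1.11 and 0.65.

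Of 19 clock genes, 4 were higher (21.1%, where it was 24.4% for all genes) and 2 lower (10.5%, where it was 6.90%). The list's median was 0.03, where it was 0.07 for all genes. With the GC trend removed 1 was higher and 3 lower, where it was 6.73% and 7.91% of all genes. Arntl and Clock, whose products pair as the activator of the clock, were higher by 0.99 and 0.97, and Dbp, an output gene of that pair, lower (log2 difference -0.69, adjusted p = 0.000107). Dbp was at 90.4 to 130 in high share libraries with a median of 106, against 147, 200.3, 154, 198 and 172 in low share libraries. The hour of collection is not in the labels, and its part was not tested. Arntl missed the threshold within label groups (0.77, adjusted p = 0.0521), and Clock with the GC trend removed (0.10, adjusted p = 0.447). Of 14 glucocorticoid targets 7 were higher, where it was 24.4% of all genes, and 0 lower, with a median of 0.53 and overlapping sets for each of them, among them Klf9 (0.47), Cdkn1a (0.83) and the metallothionein gene Mt2 (1.28). Within label groups 3 were called higher, where it was 17.9% of all genes, and 3 with the GC trend removed, where it was 6.73%.

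Of 23 immediate early genes, 1 was higher (4.35%, where it was 24.4% for all genes) and 4 lower (17.4%, where it was 6.90%). The higher one was Klf6 (0.44, adjusted p = 0.0176), and the lower ones included Ier3 (-0.76) and Btg2 (-0.27). Klf6 and Ier3 were not called within label groups (adjusted p = 0.113 and 0.0862). Of 11 replication-dependent histone genes, 3 were higher (27.3%) and 1 lower (9.09%), near the shares of all genes. Hist1h4h was the lower one, at 94.9 to 126 with a median of 112 in high share libraries and 169 to 205 in low share libraries (-0.76), and Hist2h2be (0.52) and Hist1h2be (0.41) were higher. Of 11 snoRNA host genes 2 were higher (18.2%, where it was 24.4% for all genes), Snhg1 (0.57) and Gas5 (0.55). Another 2 were lower (18.2%, where it was 6.90%), among them Snhg8. Snhg1 and Gas5 were called neither within label groups (adjusted p = 0.0741 and 0.242) nor with the GC trend removed.

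Sex-linked genes are confounded with the label groups. WT_F made up 1 of the 7 high share libraries and 3 of the 5 low share libraries. Xist, whose RNA coats and silences an X, was at 21.9 nuclear TPM in WT_F 28 and at 5.02 to 8.80 in WT_F 29, 31 and 32, and at 0.0543 or less in WT_A and WT_B. The Y-linked genes Ddx3y, Eif2s3y, Uty and Kdm5d were at 0 in all WT_F libraries. Within WT_A, Eif2s3y was at 52.7 in WT_A 22, against 1.97 and 2.68 in WT_A 23 and 26. Ddx3y was at 66.1, against 9.03 and 10.2, and Uty at 8.20, against 0.540 and 0.625. These Y-linked genes thus differed several fold among WT_A libraries, and Kdm5d less so, at 4.08 against 2.34 and 2.36. Of 8 sex-linked genes tested 4 were higher (50%, where it was 24.4% for all genes), including the X-linked Ddx3x (1.08, adjusted p = 0.00586). With the GC trend removed 0 were called, with Eif2s3y at 2.69 (adjusted p = 0.0677).

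Cell type marker lists were read against the 24.4% of all genes that were higher and the 6.90% that were lower. Fibroblast markers had 4 higher (33.3%) and 0 lower of 12, including Lum (0.99), Dcn (0.40) and Col3a1 (0.51), with Col1a1 at 0.37 (adjusted p = 0.114). Within label groups 1 was called, and Dcn (adjusted p = 0.136) and Col3a1 (adjusted p = 0.247) were not. The summed nuclear TPM of the list was 1923 to 2790 in high share libraries and 1811 to 2656 in low share libraries. After removal of the GC trend Dcn turned to -0.64 (adjusted p = 0.00512). Macrophage markers had 3 higher of 14 (21.4%), namely Mrc1 (0.90), Cd163 (0.81) and Lyve1 (0.60). Cd163 was not called within label groups (adjusted p = 0.149), and 0 of the 14 were called with the GC trend removed. Their sums were 672 to 1162 in high and 768 to 982 in low share libraries. Csf1r, the growth factor receptor of macrophages, was at 18.8 to 34.5 in high and 21.5 to 26.99 in low share libraries (0.12, adjusted p = 0.553).

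Endothelial markers had 1 higher of 14, Emcn (0.68), with sums of 1455 to 2407 in high and 1596 to 2033 in low share libraries, and Pecam1 was at 92.9 to 127 and 105 to 120.5 in the same order (-0.09, adjusted p = 0.485). Flt1 (0.26) and Cldn5 (-0.25) did not pass. Smooth muscle and pericyte markers had 1 higher of 9, Rgs5 (0.90), with Abcc9 at 0.26 and Kcnj8 at -0.25, and sums of 798 to 1627 in high and 583 to 854 in low share libraries. Ventricular markers had 2 higher, Pln and Hey2 (0.59), and 2 lower of 10, Myl2 among them, and their sums of 28334 to 30573 in high and 31882 to 37955 in low share libraries did not overlap. Blood genes had 1 higher of 7, the platelet gene Ppbp (1.17), and Hba-a1 was at 1489 to 2127 in high and 1072 to 2906 in low share libraries (0.09, adjusted p = 0.826), with Pf4 at -0.36 and Hbb-bs at -0.41.

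Atrial markers had 0 of 8 called (Stard10 -0.18, Tbx5 -0.17, Dkk3 -0.41), and Myl7, the atrial light chain, was at 0.330 to 6.45 in high share libraries and 0 to 7.62 in low share libraries, against 18900 in WT_A 24. None of the tested adipocyte (Cidea, Fabp4), mesothelial (Wt1, Upk3b), skeletal muscle (Acta1, Ckm, Tnni2) or lymphocyte and neutrophil (S100a9, Cd79a) markers were called, with 2, 2, 5 and 2 tested. The T cell genes Cd3e and Cd8a and the skeletal myosin genes Myh1, Myh2 and Myh4 were under 1 nuclear TPM in each of the 12 libraries. What part the called markers have in the other differences was not tested.

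Library WT_F 30, whose share of 17.2% kept it out of both sets, lay between them for part of the nuclear genes. Of the 2263 genes with all high share libraries above all low share libraries, it lay between the sets for 959 (42.4%), and at its median gene it had gone 0.567 of the way from the low to the high mean. Of the 448 genes in the other direction it lay between for 99 (22.1%), and its median position was 0.501. WT_A 24, with a share of 6.63%, had median positions of 0.534 and 0.675, which do not follow its share, and its atrial transcripts set it apart from both sets.

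Other properties of the libraries went along with the share. The number of nuclear genes at 1 nuclear TPM or more was 14525 to 15008 in high share libraries (mean 14700 ± 171, SD, n = 7) and 13405 to 14387 in low share libraries (mean 13937 ± 421, SD, n = 5; exact permutation p = 0.00126, adjusted p = 0.00316). The 50 most abundant nuclear genes took 29.7% ± 0.476 of the nuclear total in high share libraries and 31.3% ± 1.20 in low share libraries (exact permutation p = 0.00253, adjusted p = 0.00316). Depth, at 21940000 ± 5136320 fragments in high share libraries and 24880000 ± 3422110 in low share libraries, gave an exact permutation p of 0.299. In all, 11 nuclear copies of mitochondrial DNA were found among the genes, such as Gm28661, whose transcript matches mt-Co2 over its whole length. They took 0.597% to 4.80% of the nuclear total in high share libraries and 0.0419% to 0.210% in low share libraries, and may hold fragments of the mitochondrial genome. Without them in the total and the test 3977 genes were higher and 707 lower, of 14653.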

How the data were processed

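Hearts of wild-type mice were profiled by RNA-Seq from poly-T selected RNA, 14 libraries in all. The authors counted fragments per gene with featureCounts and deposited FPKM, which divides them by gene length and depth. The submitters' processing notes name DESeq2 and the build GRCm39, and the aligner is not given in the sources used here. Whether libraries were directional is not settled by the labels, so overlapping and antisense genes, like near-identical copies, may share fragments. The comparisons the authors made with DESeq2 were not used.

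Gene symbols, lengths and GC content came from GENCODE M21 (GRCm38), which named 52073 of 56748 genes, and no coordinates were taken from it. Steps in the low FPKM values gave depths of 16810000 to 31970000 fragments per library, with 90.2% to 92.0% of values whole within 0.02 fragments. Nuclear TPM is the FPKM of a gene not named mt- over the sum for all such genes, times 1000000. Genes at 1 or more in at least 5 of 12 libraries were tested with limma 3.58.1 (R 4.3.3) on log2(nuclear TPM + 1), with an intensity trend and Benjamini-Hochberg adjustment at 0.05. Every adjusted p of a gene is from limma, and measures the spread between these libraries. The fit was tested on simulated data. Library measures were compared with exact two-sided permutation tests (scipy 1.17.1). Nuclear copies were found with BLAST+ 2.17.0 at 95% identity over 80% of the length. Tables and plots used Python 3.11.15, pandas 2.3.3, numpy 2.4.6 and matplotlib 3.10.9.

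Named genes are the 10 per direction described with the results, the 3 members of each of 32 lists with the smallest p, the mt- genes other than tRNAs, and 8 defining cell type markers, except 1 gene that is not reported here. The libraries, members and lists were chosen with earlier results of these data known. Alternatives covered the pseudocount, filter, scaling, label group, weights, GC trend, recovered fragments with voom, the left-out libraries, a threshold on size and each library left out in turn. Leaving out nuclear copies, and the GC trend together with the label group, were added after seeing the data.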

Additional observations from a re-analysis of the deposited data

Results flagged for a closer look

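Some values stood apart within their set by the gap to the nearest other library. Chance flags about 1 in 20 groups, and 16 of 232 groups tested passed. In the mt- share WT_B 9 was low among high share libraries, at 33.8% against 45.2% to 52.02%, and it was also low in the share from genes under 40% GC (0.869% against 1.18% to 1.31%) and in Srsf10 (15.03 nuclear TPM against 25.3 to 32.4), and high in Pdhb (735 against 608 to 662). Other high share libraries apart were WT_A 22 in Tfam (43.7 against 36.5 to 39.3) and S100a9 (21.8 against 0.384 to 6.86), WT_B 4 in Snhg8 (15.4 against 8.38 to 10.3), WT_F 28 in Hist2h2be (22.8 against 15.03 to 16.9) and in Eif2s3y (0 against 35.6 to 54.9), WT_B 8 in Upk3b (10.4 against 0.171 to 1.39) and WT_B 5 in Myl7 (6.45 against 0.330 to 2.54).

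Low share libraries apart were WT_F 29 in Smim27 (22.96 nuclear TPM against 14.9 to 16.7), WT_A 26 in Etfb (373 against 319 to 324) and in the abundance-weighted median GC content (53.27% against 53.21%), and WT_A 23 in Upk3b (8.76 against 0 to 2.46) and Myl7 (7.62 against 0 to 1.94). Myl7 was at 18900 in WT_A 24, which was left out, against 0 to 7.62 in the 12 libraries compared.

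The high minus low log2 difference was tested between WT_F and WT_A for each gene with limma, and 8 genes passed. The WT_F difference less the WT_A difference was -4.02 for Eif2s3y (adjusted p = 0.00299), -2.30 for Trf (adjusted p = 0.0116), -5.87 for S100a9, -2.92 for Cdo1, -1.69 for Tmem100, -5.95 for Hp, -2.74 for Lcat (adjusted p = 0.043) and -4.20 for Ahsg (adjusted p = 0.0454). Each rests on 1 high share library per label group. Eif2s3y was at 0 in all WT_F libraries, which sets both its WT_F difference and its flag in WT_F 28.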

How the results depend on the processing

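No paired analysis was possible because no mouse number is shared between label groups. The main fit gave 4595 calls (3583 higher and 1012 lower), of which 1020 had a log2 difference of at least 1, 988 higher and 32 lower. A refit with the GC trend removed gave 2093 calls among 14296 genes, 962 higher and 1131 lower, not all of them among the 4595. An alternative chosen after seeing the data removed the GC trend with the label group as a term. It gave 817 calls (509 higher and 308 lower), against 3220 with the label group alone, of which 589 were lower. Lower calls numbered 2270 with median-of-ratios scaling, 3341 with quantile normalization, 3221 with deposited FPKM, 1956 with voom and 661 with WT_A 24 added to the low share set. Leaving out 1 library gave 3916 (without WT_A 23) to 4678 (without WT_B 9) calls. Among genes called in the main fit, directions turned for Myl2 with WT_A 24 added (0.40, adjusted p = 0.745). With the GC trend removed they turned for Snhg1 (-0.37), Gas5 (-0.20), Hist1h2be (-0.10), Klf6 (-0.017), Hey2 (-0.19), Emcn (-0.11), Dcn (-0.64) and Mrc1 (-0.00018). With the label group as a term in addition they turned for Hnrnpk (-0.0089), Snhg1 (-0.42), Gas5 (-0.43), Klf6 (-0.0058), Uchl1 (0.080), Uty (-0.35), Hey2 (-0.51), Emcn (-0.25), Dcn (-0.77) and Rgs5 (-0.051). The cause was not tested. Of 3287 values of named genes under the alternatives, 3019 were counted as the same, 212 lost the call, 37 gained it and 19 turned. Turns were counted only for genes called in at least 1 of the fits compared. The 3019 therefore include uncalled genes that changed sign, such as Myh6 (0.20, and -0.21 with the label group as a term). The 12 libraries fell into the same sets when ranked by fragments or by mt- mRNAs alone.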
